A study of Mus musculus with 16 samples.

Results

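The Ly6 surface antigens *Ly6a*, *Ly6c1*, *Ly6c2* and *Ly6e* were followed through RNA-seq of C2C12, an immortalised line of mouse myoblasts that can form multinucleated myotubes in low serum. The 4 genes are the rows whose Ensembl identifiers map to these symbols among the 49585 genes of each of 2 count tables. All 4 were found in both tables. They were chosen by their expression values in these same libraries, with earlier results in view, and which comparison led to each of them is not recorded. The values of AMPK-KO against WT cells are therefore given as a description, without a test. *Ly6c2* had counts above the detection floor of 3 in 8 of the 16 libraries, and the other 3 genes above it in at least 14.

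The 16 libraries formed 8 groups of 2. In the first table, WT cells and AMPK-KO cells, in which CRISPR was aimed at the catalytic subunit genes *Prkaa1* and *Prkaa2*, were sampled at day 0 (d0) and day 8 (d8) of differentiation. The labels call the d8 cells of both genotypes myotubes, a name used here for neither. In the second table all cells were AMPK-null myoblasts at d0 and carried a FLAGBirA tag knocked in at the endogenous *Tet2* gene. TET2-WT cells had the tag with the normal residue, and TET2-S97E cells had it with a serine-to-glutamate substitution that mimics phosphorylation. Each of these genotypes was represented by 2 clones with 2 libraries per clone, so a difference between genotypes rests on 2 clones against 2. The study describes its RNA-seq of AMPK-KO cells as coming from a pair of independent knockout lines, but the labels do not tie a library to a line, so replicate and line cannot be told apart there. For the other groups nothing states that replicates were separate cultures, and p-values measure the spread between these libraries, which may be technical. The depth was 17883417 to 24663079 counts per library for WT and AMPK-KO cells and 19801909 to 37790358 for the TET2 lines. Levels are given as CPM, the counts of a gene scaled to library size by trimmed mean of M-values within each table. Values of the 2 tables are therefore set side by side but not tested against each other.

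Ly6 proteins are small cell-surface proteins with a cysteine-rich Ly6/uPAR domain, and most are tethered to the outer membrane leaflet by a glycosylphosphatidylinositol (GPI) anchor. *Ly6a* encodes Sca-1, used to sort haematopoietic stem cells and several progenitors of muscle tissue. *Ly6c1* and *Ly6c2* encode the Ly6C antigens of monocytes and endothelial cells, and *Ly6e* encodes a widely expressed family member. *Ly6a*, the Ly6C genes and *Ly6e* are all known to respond to interferon.

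The 4 genes lie within 156920 bases of chromosome 15 (GRCm38 build, GENCODE annotation), all as protein-coding genes. *Ly6e* (ENSMUSG00000022587.14) runs from 74955051 to 74959905 on the plus strand. *Ly6a* (ENSMUSG00000075602.10) follows at 74994877 to 74998031, *Ly6c1* (ENSMUSG00000079018.10) at 75044018 to 75048830 and *Ly6c2* (ENSMUSG00000022584.14) at 75108158 to 75111970, all on the minus strand. The gaps between them measure 34971, 45986 and 59327 bases.

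*Ly6c1* and *Ly6c2* are near-identical copies, and the first 120 coding bases are printed to show where they differ. Capitals mark bases that differ from *Ly6c1*, of which there are 6 in *Ly6c2* and 8 in *Ly6a*.
Ly6c1: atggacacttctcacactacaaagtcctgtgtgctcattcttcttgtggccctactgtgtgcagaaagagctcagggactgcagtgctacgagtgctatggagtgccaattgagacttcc
Ly6c2: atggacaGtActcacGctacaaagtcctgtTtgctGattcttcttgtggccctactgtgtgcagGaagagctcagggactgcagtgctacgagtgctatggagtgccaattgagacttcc
Ly6a: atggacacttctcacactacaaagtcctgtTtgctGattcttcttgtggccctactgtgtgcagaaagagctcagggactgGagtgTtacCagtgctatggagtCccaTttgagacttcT
Over the whole coding sequence, *Ly6c1* and *Ly6c2* shared 387 of 396 aligned bases (97.7%). *Ly6a* shared 83.8% with *Ly6c1*, and *Ly6e* shared 58.8 to 60.2% with the other 3. Among stretches of 150 bases, 39 of the 695 in the *Ly6c1* transcript (5.61%) also occur in *Ly6c2*, and none of the *Ly6a* or *Ly6e* stretches occurs in another gene. Among stretches of 50 bases, 36.7% of *Ly6c1*, 33% of *Ly6c2* and 8.05% of *Ly6a* occur elsewhere, and none of *Ly6e*. How the counting treated reads with several alignments is not given in the sources used here, so the split between *Ly6c1* and *Ly6c2* is uncertain, while *Ly6a* and *Ly6e* share no stretch of 100 bases with another gene.

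The promoters of *Ly6c1* and *Ly6c2*, whose profiles over the libraries were alike, are shown as windows from 250 bases before to 50 after the RefSeq start (GRCm38.p6, minus strand, chr15:75048788-75049087 and chr15:75111922-75112221). Capitals mark the E-box CAGCTG, a palindrome of the kind bound by myogenic bHLH factors.
Ly6c1 promoter: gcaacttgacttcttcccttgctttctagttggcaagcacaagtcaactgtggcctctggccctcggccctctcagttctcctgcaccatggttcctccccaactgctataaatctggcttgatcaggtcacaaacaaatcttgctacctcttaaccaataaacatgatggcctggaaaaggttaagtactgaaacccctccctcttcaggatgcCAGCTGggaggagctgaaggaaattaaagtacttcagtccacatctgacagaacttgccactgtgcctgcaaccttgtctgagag
Ly6c2 promoter: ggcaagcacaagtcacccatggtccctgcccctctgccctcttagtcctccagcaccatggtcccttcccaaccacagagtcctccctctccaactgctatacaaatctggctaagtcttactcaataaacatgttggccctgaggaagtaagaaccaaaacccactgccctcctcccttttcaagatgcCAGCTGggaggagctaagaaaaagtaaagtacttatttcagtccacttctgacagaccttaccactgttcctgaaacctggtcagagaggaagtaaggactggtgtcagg
The windows aligned over 266 bases with 78.2% identity. Each holds 1 CAGCTG, beginning at −35 in *Ly6c1* and −60 in *Ly6c2* relative to the start, a match found in 16.3% of 32851 promoter windows of this length. Neither strand of either window holds the core of the interferon-stimulated response element (GAAA, any 2 bases, GAAA; in 3.44% of windows) or the interferon-γ-activated sequence TTCNNNGAA (8.3%). TATAAA occurs in *Ly6c1* only (13.6% of windows). The *Ly6c1* window has 1 CpG and the *Ly6c2* window none, against a median of 7 per window, and 14.1% and 5.43% of windows have as few. These matches describe letters in a window and no binding was measured.

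The edited genes were read first. *Prkaa1* measured 158 and 158 CPM in WT and 79.6 and 78.0 CPM in AMPK-KO cells on day 0, and 126 and 125 CPM against 83.3 and 82.4 CPM at d8. *Prkaa2* measured 1.69 and 1.79 CPM in WT against 0.209 and 0.420 CPM at d0, and 6.22 and 10.1 CPM against 1.26 and 0.825 CPM at d8. These counts cover whole genes and do not show the edits. Both edited genes were thus lower in every AMPK-KO library than in every WT library of the same day. In the second table, all made of AMPK-null cells, *Prkaa1* lay between 73.4 and 104 CPM. The cells expressed the desmin gene *Des* or the integrin *Itga7* as their most abundant of 16 myogenic markers in all 16 libraries, and all 16 markers exceeded 3 counts in each WT library.

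*Ly6a* was abundant in WT cells and scarce in AMPK-KO cells. It measured 309 and 207 CPM in WT and 3.92 and 1.5 CPM in AMPK-KO cells at d0. At d8 it measured 393 and 512 CPM in WT and 19.6 and 0.728 CPM in AMPK-KO cells. Every AMPK-KO library was thus below every WT library, and the 2 AMPK-KO libraries at d8 were far apart. In these bulk samples fewer expressing cells and less RNA per cell cannot be told apart. The group means were 258 ± 72.1 and 2.71 ± 1.72 CPM at d0 (SD, n = 2 each), 95.3-fold lower in AMPK-KO cells. At d8 they were 452 ± 84.4 and 10.2 ± 13.4 CPM (SD, n = 2 each), 44.4-fold lower. The fitted log2 fold changes were −6.58 (SE 1.34) at d0 and −5.46 (SE 1.24) at d8, and leaving out AMPK-KO d8 replicate 1 moved the latter to −9.25.

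*Ly6c1* was likewise high in WT and low in AMPK-KO libraries. It measured 105 and 83.6 CPM in WT and 1.52 and 0.934 CPM in AMPK-KO cells at d0. At d8 it measured 232 and 375 CPM in WT and 1.30 and 0.194 CPM in AMPK-KO cells. The groups were again fully separate, 76.8-fold apart at d0 and 405-fold apart at d8, with fitted log2 fold changes of −6.27 (SE 0.635) and −8.60 (SE 0.697). The 2 AMPK-KO libraries at d8 rested on 32 and 4 counts, so the fold at d8 carries a wide counting error, and without replicate 1 the fitted log2 fold change was −10.55. *Ly6c2*, the least abundant, had 324 and 155 counts in WT cells at d0 (15.6 and 8.4 CPM) and 576 and 921 at d8 (31.7 and 43.2 CPM). It had 0 counts in all 4 AMPK-KO libraries. Taking the floor of 3 counts for each AMPK-KO library, *Ly6c2* was at least 80.8-fold lower at d0 and at least 280-fold lower at d8.

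*Ly6e* stood apart from the other 3. It measured 233 and 258 CPM in WT and 123 and 166 CPM in AMPK-KO cells at d0, a 1.70-fold lower mean with no overlap and a fitted log2 fold change of −0.77 (SE 0.552). At d8 it measured 138 and 97.4 CPM in WT and 391 and 99.9 CPM in AMPK-KO cells. The groups overlapped at d8, and the 2.09-fold higher mean came from 1 library. Without AMPK-KO d8 replicate 1 the fitted log2 fold change turned from 1.06 (SE 0.555) to −0.22. At d0 all 4 genes were lower in AMPK-KO cells without overlap, as were 25.7% of the 14329 genes tested (23.6% were higher without overlap). At d8 3 of 4 were, as were 27.9% (30% were higher). Of the genes tested, 3.52% at d0 and 5.35% at d8 passed an edgeR adjusted p of 0.05 (0.698% higher and 2.83% lower at d0, 1.36% higher and 3.98% lower at d8). Nothing is read from these shares, because the genes were picked with these results in view.

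**Figure D1:**
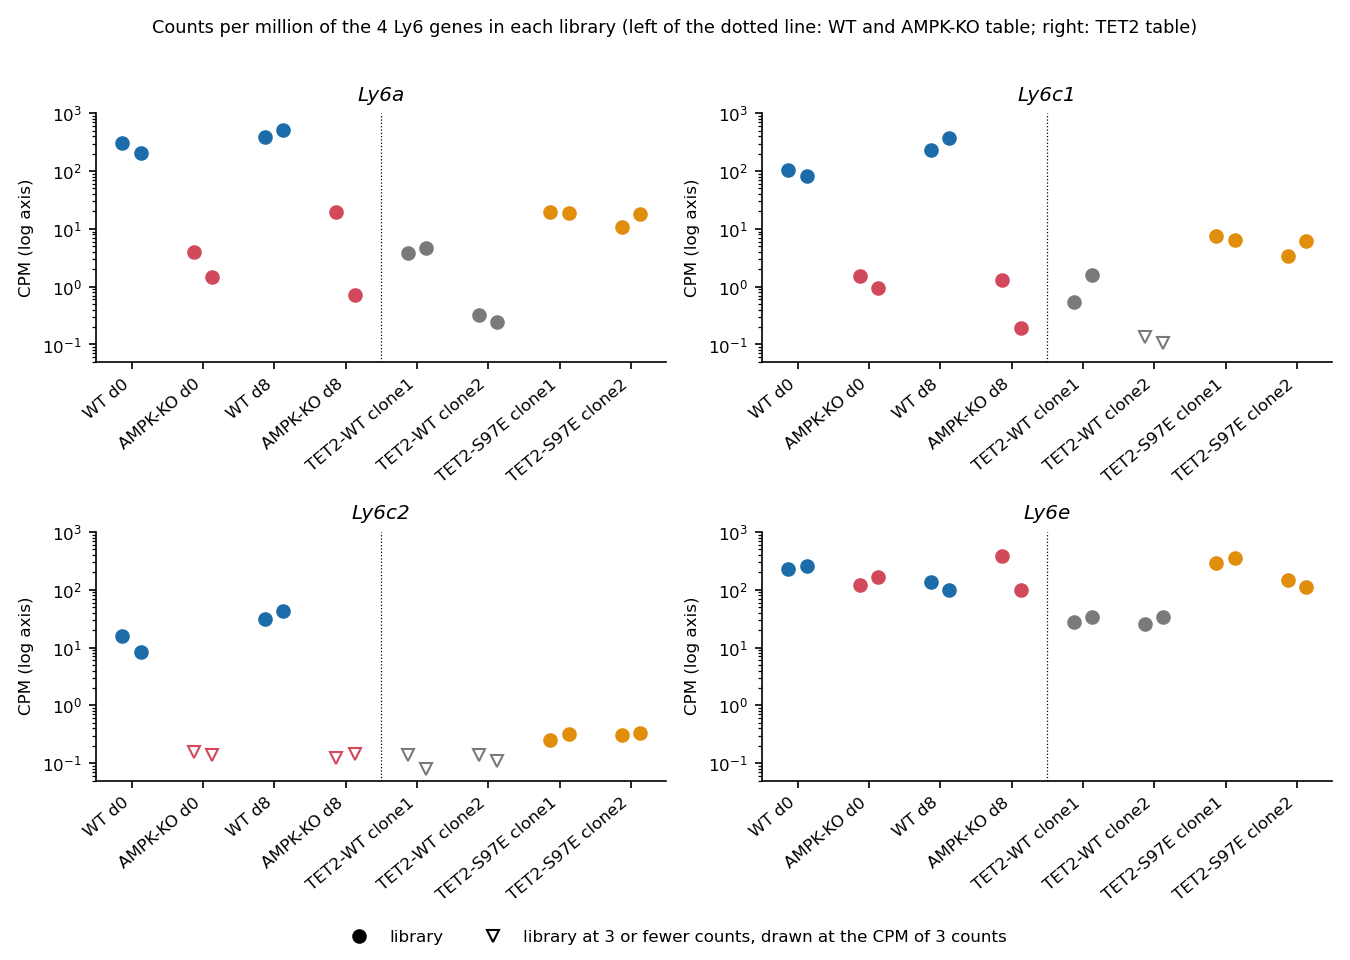
Each panel plots CPM (vertical log axis) of 1 gene in every library by group, with the 2 replicates of a group side by side and open triangles at the CPM of 3 counts for libraries at or under the floor. *Ly6a*, *Ly6c1* and *Ly6c2* were highest in the 4 WT libraries, and *Ly6e* was lowest in the 4 TET2-WT libraries.

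Per length, the genes also changed places. In TPM, which divides by exon length before scaling, *Ly6a* was the highest of the 4 in each WT library, at 938 and 595 TPM at d0 and 1206 and 1562 TPM at d8. *Ly6e* was the highest in each of the 12 AMPK-null libraries, and *Ly6c2* the lowest in all 16. *Ly6c1* exceeded *Ly6e* in 3 of 4 WT libraries, with 228 against 225 TPM and 173 against 236 TPM in the replicates at d0, so these neighbours did not differ beyond their spread there. At d8 the WT libraries held 513 and 822 TPM of *Ly6c1* against 135 and 94.7 TPM of *Ly6e*. *Ly6c2* contributed 13.0% (95% exact binomial interval 11.7 to 14.4) and 9.13% (7.8 to 10.6) of the Ly6C counts in the WT libraries at d0, and 12% (11.1 to 13) and 10.3% (9.71 to 11) at d8. Replicates thus differed beyond counting error on both days. In AMPK-KO cells none of 49 such counts at d0 and none of 36 at d8 was *Ly6c2*, which allows shares of up to 6.12% and 8.33% by 3 counts of the total and up to 7.25% and 9.74% by the exact interval. These intervals and limits cover counting error only. In TET2-S97E cells *Ly6c2* made up 15 of 361 such counts in clone 1, 4.16% (2.34 to 6.76), and 16 of 274 in clone 2, 5.84% (3.37 to 9.31).

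During differentiation of WT cells the group means of the Ly6C genes were higher at d8, but no change of the 4 genes passed the test. *Ly6c1* was 3.22-fold higher at d8 than at d0 (log2 fold change 1.69, SE 0.489, edgeR adjusted p = 0.0654). *Ly6c2* was 3.12-fold higher (1.64, SE 0.390, edgeR adjusted p = 0.0569). For both the DESeq2 Wald test gave adjusted p-values of 0.00496 and 0.0024. The 2 libraries at d8 lay above the 2 at d0 for *Ly6a* and both Ly6C genes, and below them for *Ly6e*. The share of all genes separated in this way is not given here, so nothing is read from it. *Ly6a* gave a log2 fold change of 0.81 (SE 1.03, edgeR adjusted p = 0.638) and *Ly6e* −1.06 (SE 0.555, edgeR adjusted p = 0.242). Calls depended on single libraries. *Ly6c1* (edgeR adjusted p = 0.0168 and 0.0156) and *Ly6e* (0.0348 and 0.0417) were called without AMPK-KO d8 replicate 1 or 2, and *Ly6c2* without WT d0 replicate 1 (0.0378) or AMPK-KO d8 replicate 2 (0.0445). In this comparison 12.4% of 14329 genes passed the threshold (5.78% higher, 6.58% lower). Of 16 myogenic markers 8 were called higher and none lower (median log2 fold change 3.87, against 0.0132 for all genes). Of 12 fibro-adipogenic markers *Col3a1*, *Dcn*, *Lum* and *Pi16* were called higher and none lower (median 0.376). Genes that the filter on low counts kept through 1 day alone, which favours 1 direction, were not left out of either list here. Of the genes called, the myogenic *Actn2* and *Pi16* each reached the filter in only 2 WT libraries. What part these markers' changes had in the Ly6 levels was not tested. In AMPK-KO cells the log2 fold changes from d0 to d8 were 1.93 (SE 1.15) for *Ly6a*, −0.64 (SE 0.691) for *Ly6c1* and 0.77 (SE 0.552) for *Ly6e*, with edgeR adjusted p-values of 0.313, 0.575 and 0.403, against 9.76% of genes called (4.81% higher, 4.95% lower). Those of *Ly6a* and *Ly6e* turned to −1.87 and −0.52 without AMPK-KO d8 replicate 1, and without replicate 2 that of *Ly6a* was 2.84 and was called (edgeR adjusted p = 0.0407). The difference between the genotypes in this change, tested in the same model, had edgeR adjusted p-values of 0.95 to 1.0 for *Ly6a*, *Ly6c1* and *Ly6e*. No gene of 14329 was called for that difference by edgeR, and 729 had an unadjusted p under 0.05.

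The library behind these turns, AMPK-KO d8 replicate 1, also carried interferon-stimulated transcripts at levels seen in no other library. *Ifit1*, an antiviral effector that binds foreign RNA, measured 332 CPM there against 8.30 CPM in replicate 2 and at most 1.08 CPM in the other 6 libraries of the table. *Isg15*, a ubiquitin-like modifier, measured 213 against 5.78 CPM. Summed over 44 interferon-stimulated genes, the level was 3557 CPM in replicate 1, 796 CPM in replicate 2 and 483 to 681 CPM in the other 6 libraries. *Ly6a* was 27.0-fold, *Ly6c1* 6.72-fold and *Ly6e* 3.91-fold higher in replicate 1 than in replicate 2, while *Ly6c2* stayed at 0 counts in both. The fold of *Ly6c1* rests on 4 counts in replicate 2. Its 1.30 CPM in replicate 1 lay between the 0.934 and 1.52 CPM of the AMPK-KO libraries at d0. Even in replicate 1, *Ly6a* and *Ly6c1* lay below all WT libraries.

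A gene that passed the filter on low counts through the libraries of 1 genotype alone was favoured in 1 direction by the filter. Such genes are left out of the counts of calls and the medians of the lists between genotypes, and of the same for all genes beside them (1479 of 14329 in the first table, 850 of 13433 in the second). Of the 44 interferon-stimulated genes, 35 were tested between AMPK-KO and WT cells, 29 of them not of this kind. At d8 the 29 had a median log2 fold change of 2.04 against 0.0627 for all genes. *Ifi35*, *Ifit1*, *Ifitm2* and *Ifitm3* were called higher and none was called lower (4 of 29, where 1.32% of all genes were called higher and 2.2% lower). In replicate 1 all 29 exceeded both WT libraries of that day, where 45.2% of all genes did. In replicate 2, 19 did and 5 lay below both, against 43.3% and 36.2% of all genes. Without replicate 1, an alternative chosen after seeing the data, *Ifitm3* was called higher and *Xaf1* lower of the same 29, with a median of 0.489 against 0.0534 for all genes, and 0.358% of all genes were called higher and 0.786% lower. At d0 none of the 29 was called, where 0.607% of all genes were called higher and 1.8% lower, and the median was −0.0572 against 0.0134. In AMPK-KO cells 6 of the 29 were called higher at d8 than at d0 and none lower (5.19% and 5.49% of all genes), with a median of 2.91 against 0.0182. Without replicate 1 the 3 called were *Gbp2*, *Ifit1* and *Xaf1* (3.71% of all genes were called higher), with a median of 0.846. Between TET2-S97E and TET2-WT cells, where *Ly6e* was higher, none of 24 such genes was called higher and *Ifitm3* was called lower (3.12% and 2.97% of all genes), with a median of −0.104 against 0.0135. The upstream genes of interferon signalling (receptors, kinases and transcription factors) had 2 of 15 called higher at d8 (1.32% of all genes were), the interferon-γ receptor gene *Ifngr1* and the factor *Irf1*, and none at d0 or at d8 without replicate 1. What part interferon-stimulated transcription had in the *Ly6a* and *Ly6e* levels of replicate 1 was not tested.

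**Figure D2:**
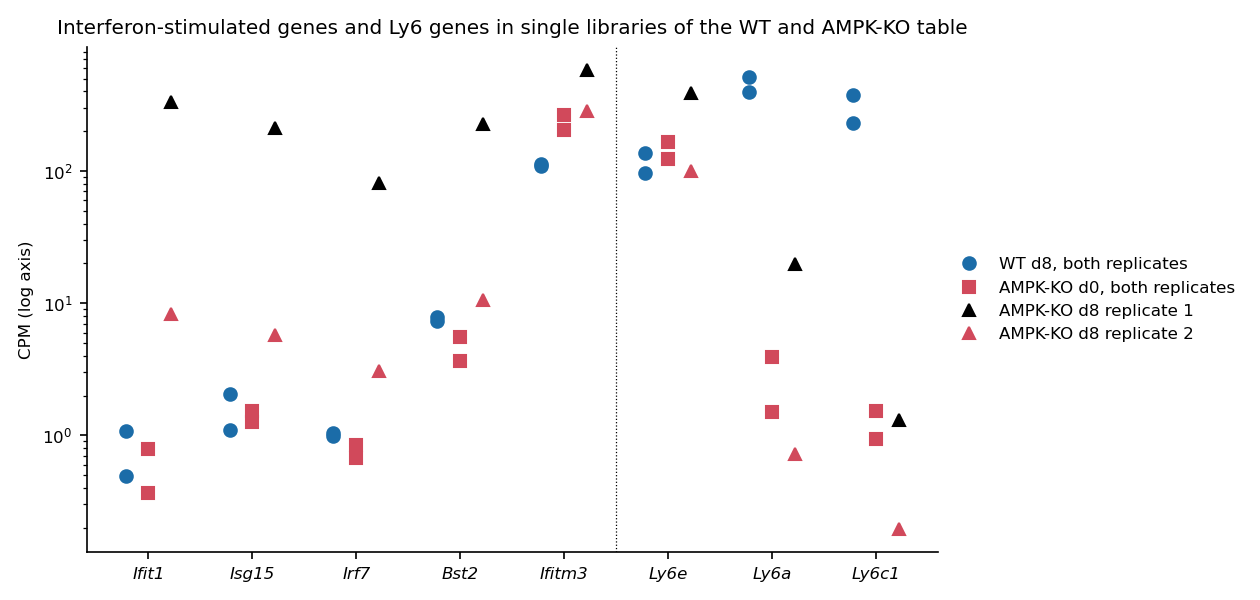
CPM (vertical log axis) of 5 interferon-stimulated genes, left of the dotted line, and 3 Ly6 genes, right of it, in the libraries of WT d8, AMPK-KO d0 and AMPK-KO d8. AMPK-KO d8 replicate 1 (black triangles) lies above the other libraries drawn for the 5 interferon-stimulated genes and *Ly6e*, and below WT for *Ly6a* and *Ly6c1*.

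In the AMPK-null background, all 4 genes were higher in TET2-S97E than in TET2-WT cells, without overlap between the 4 libraries of each genotype. Of 13433 genes tested, which do not include *Ly6c2*, 7.29% were higher and 7.99% lower in this way. *Ly6e* measured 27.9 and 33.5 CPM in TET2-WT clone 1 and 25.1 and 34.0 CPM in TET2-WT clone 2. In TET2-S97E cells it measured 292 and 351 CPM in clone 1 and 148 and 112 CPM in clone 2. The means were 30.1 ± 4.36 and 226 ± 114 CPM (SD, n = 4 each), a 7.49-fold difference with a log2 fold change of 2.90 (SE 0.354, edgeR adjusted p = 0.00559). The lowest TET2-S97E library was above every TET2-WT library by more than their spread. Whether the values of this comparison, of the clones or of differentiation took part in the choice of the 4 genes is not recorded, so their p-values in these comparisons may restate that choice and are no independent evidence.

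*Ly6a* measured 3.89 and 4.64 CPM in TET2-WT clone 1 and 0.320 and 0.249 CPM in clone 2. In TET2-S97E cells it measured 20.0 and 18.6 CPM in clone 1 and 10.7 and 18.4 CPM in clone 2. The 7.45-fold higher mean in TET2-S97E cells (log2 fold change 2.88, SE 0.799) did not pass the test across all genes (edgeR adjusted p = 0.0629), and the TET2-WT clones themselves were 14.97-fold apart. *Ly6c1* measured 0.542 and 1.61 CPM in TET2-WT clone 1 and 0.137 and 0.0356 CPM in clone 2, against 7.41 and 6.47 CPM in TET2-S97E clone 1 and 3.43 and 6.20 CPM in clone 2. Its log2 fold change was 3.27 (SE 0.81), with an edgeR adjusted p of 0.0416. The call was lost (edgeR adjusted p 0.0539 to 0.114) without replicate 1 of either TET2-WT clone or without any 1 of the 4 TET2-S97E libraries, and with the replicate number as a block (0.0541). *Ly6a* and *Ly6c1* passed the filter on low counts through TET2-S97E libraries alone, reaching it in 4 of these and in 2 TET2-WT libraries, so nothing is read from their calls. *Ly6c2* had 3, 1, 0 and 0 counts in TET2-WT and 5, 10, 6 and 10 counts in TET2-S97E cells, at least 2.63-fold higher, and was too low to be tested. The highest *Ly6a* level of the second table, 20.0 CPM, was well below the lowest WT level of the first, 207 CPM, with the tables scaled separately.

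These tests were read against 6.98% of 13433 genes called between the genotypes, 3.71% higher and 3.28% lower in TET2-S97E cells. The libraries of a clone are not independent. With counts summed per clone, leaving 2 against 2, edgeR called none of 15126 genes, 1575 had an unadjusted p under 0.05, and the edgeR adjusted p was 0.277 for *Ly6e* and 0.428 for *Ly6c1*. Without TET2-WT clone 1 the *Ly6a* log2 fold change was 5.88 and without TET2-WT clone 2 it was 1.98. Both are given without a test, because *Ly6a* passed the filter through TET2-S97E libraries alone. For *Ly6e* the edgeR adjusted p was 0.0544 without TET2-WT clone 1. The *Tet2* transcript was lower in every TET2-S97E library than in every TET2-WT library. It measured 34.2 and 22.5 CPM in TET2-WT clone 1 and 58.3 and 56.4 CPM in clone 2, against 12.9, 21.9, 7.87 and 22.1 CPM in the TET2-S97E libraries. Its log2 fold change was −1.40 (SE 0.386, edgeR adjusted p = 0.0621), and its part in the Ly6 levels was not tested.

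Clones of the same genotype were also compared. Between the TET2-WT clones, *Ly6a* was lower in clone 2 (log2 fold change −3.91, SE 0.383, edgeR adjusted p = 0.00604) where 0.858% of 14459 genes were called (0.463% higher, 0.394% lower). That call was lost without either library of TET2-WT clone 1 (edgeR adjusted p = 0.118 and 0.15), when the remaining library was assumed to vary like the other groups. *Ly6c1* had 3 and 1 counts in clone 2, at least 8.81-fold below clone 1 with 3 counts taken for each library of clone 2. This did not pass the test (edgeR adjusted p = 0.0695), but was called without either library of TET2-S97E clone 2 (edgeR adjusted p = 0.029 and 0.0336). With the replicate number as a block *Ly6c1* was also called (edgeR adjusted p = 0.0377). *Ly6e* gave −0.066 (SE 0.216, edgeR adjusted p = 0.887). Between the TET2-S97E clones, *Ly6e* was lower in clone 2 (−1.30, SE 0.215, edgeR adjusted p = 0.00866, with 6.17% of genes called, 3.35% higher and 2.82% lower), and *Ly6a* (−0.40, SE 0.273) and *Ly6c1* (−0.52, SE 0.506) had edgeR adjusted p-values of 0.503 and 0.676. The difference of these clone contrasts between genotypes was not tested. TET2-S97E clone 2 had 4 of 26 interferon-stimulated genes called higher than clone 1 (3.12% of all genes) and 1 called lower, leaving out *Ifit3b*, which passed the filter through 1 clone alone.

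**Figure D3:**
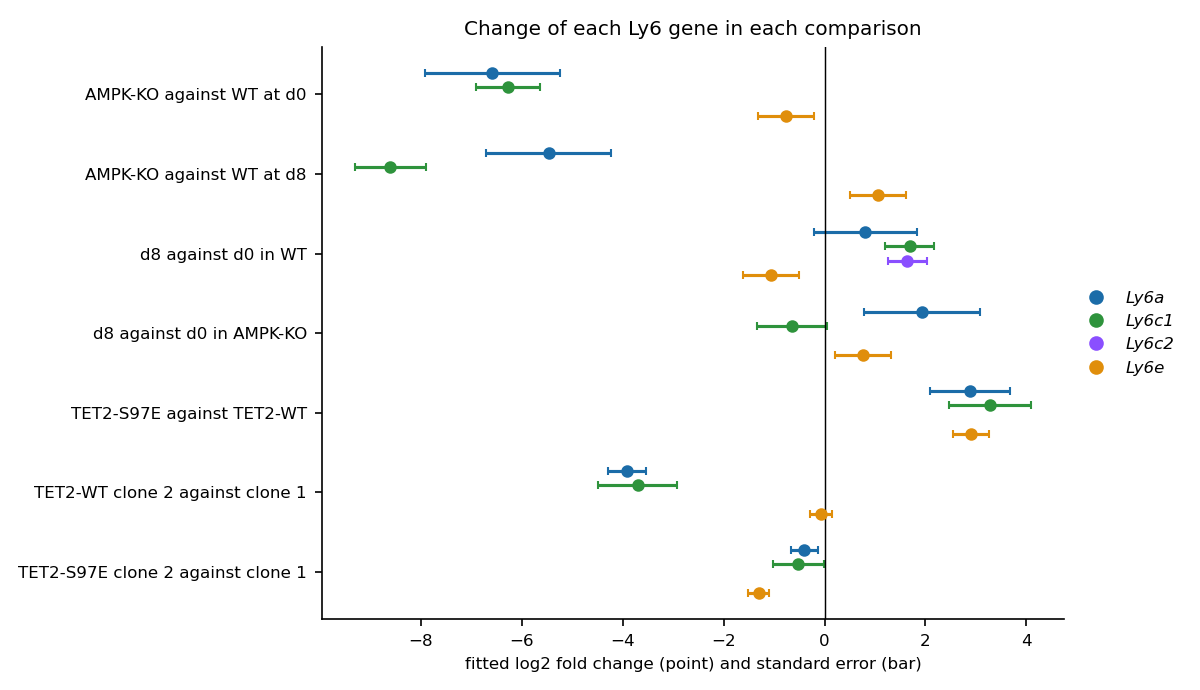
Fitted log2 fold changes (horizontal axis, points) with standard errors (bars) of each gene in the 7 comparisons. *Ly6a* and *Ly6c1* lie between −5.46 and −8.60 in AMPK-KO against WT cells, *Ly6e* at −0.77 and 1.06, and all 3 lie near 3 in TET2-S97E against TET2-WT cells. *Ly6c2* is drawn for WT differentiation only, because its other comparisons were not tested or held libraries at 0 counts.

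The genes whose profile over the 16 libraries was most like each Ly6 gene were found by the root-mean-square (RMS) difference of log2 CPM (prior count 2), each table centred on its own mean, among 13078 genes tested in both tables. *Ly6a* was closest to *Mgam*, which encodes maltase-glucoamylase, an intestinal starch-digesting enzyme (RMS difference 0.722, where the profile of *Ly6a* itself has an RMS of 3.004). *Ly6c1* (0.772), the complement regulator *Cd55* (1.48), the satellite cell factor *Pax7* (1.501) and the inositol phosphate kinase *Itpkb* (1.54) followed. *Mgam* measured 91.7 and 78.1 CPM in WT and 1.31 and 1.22 CPM in AMPK-KO cells at d0. It measured 146 and 202 against 4.81 and 1.41 CPM at d8, with the higher AMPK-KO value in replicate 1 as for *Ly6a*. In the second table it measured 1.49 and 2.32 CPM in TET2-WT clone 1 and 0.0915 and 0.107 CPM in clone 2, and 20.6, 7.58, 5.70 and 4.99 CPM in the TET2-S97E libraries. *Cd55*, also GPI-anchored, measured 30.4 and 26.0 CPM in TET2-WT clone 1 and 9.24 and 8.01 CPM in clone 2.

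*Ly6c1* had *Ly6a*, *Mgam*, *Pax7*, *Itpkb* and *Btbd17* as its most alike genes, and *Ly6c2* had *Ly6c1*, *Btbd17*, the secreted Wnt-pathway regulator *Dkk3*, *Mgam* and *Pax7*. *Pax7* measured 8.05 and 9.16 CPM in WT and 0 and 0.0467 CPM in AMPK-KO cells at d0. Its highest TET2-WT level, 0.158 CPM, lay below the lowest TET2-S97E level, 1.66 CPM. These likenesses are descriptions over libraries that share depth and groups. The genes were picked for their profiles, so no test of them is given here, and 2 of the 5 genes of *Ly6a* were also among its 5 most alike when either table was used alone.

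*Ly6e* had another set of most alike genes. They were the endothelial lipase gene *Lipg* (RMS difference 0.471, against 1.14 for the profile of *Ly6e*), the ribosomal RNA processing gene *Utp14b* (0.549), the squalene epoxidase gene *Sqle* (0.585), the acetoacetyl-CoA-forming enzyme gene *Acat2* (0.595) and the sterol dehydrogenase gene *Nsdhl* (0.621). The last 3 act in cholesterol synthesis. *Sqle* measured 131, 128, 75.6 and 55.6 CPM in the TET2-WT libraries and 381, 473, 407 and 305 CPM in the TET2-S97E libraries, a log2 fold change of 2.00 (SE 0.283), and *Nsdhl* gave 2.51 (SE 0.32). Between AMPK-KO and WT cells the log2 fold changes at d0 and d8 were −0.26 and 0.22 for *Sqle* and 0.071 and 0.34 for *Nsdhl*. None of the 5 was among the 5 most alike genes of *Ly6e* when either table was used alone, so the set rests on the joint profile.

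**Figure D4:**
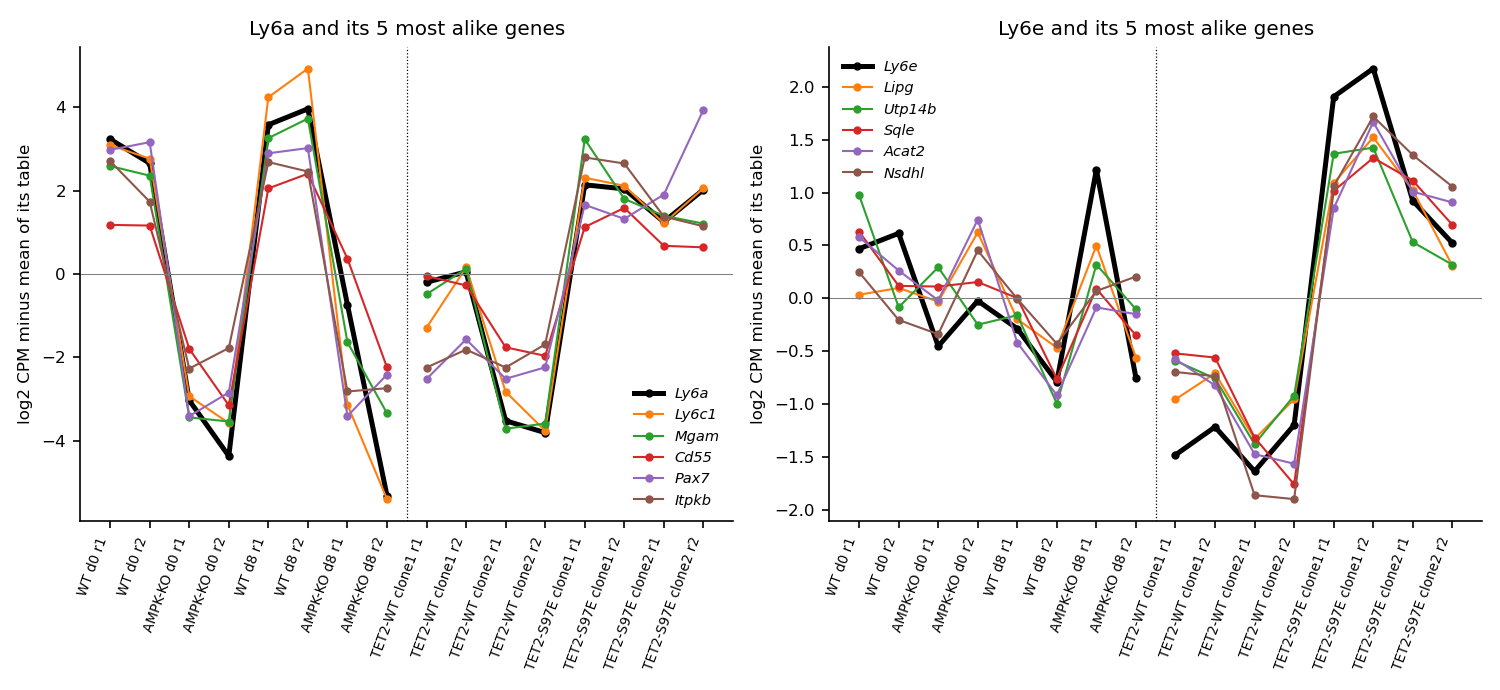
Log2 CPM minus the mean of its table (vertical axis) for *Ly6a* and *Ly6e* (thick black lines) and their 5 most alike genes (thin lines) in the 16 libraries. The *Ly6a* set is high in WT and low in AMPK-KO libraries, and both sets separate TET2-WT from TET2-S97E libraries in the second table.

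Most other genes of the Ly6/uPAR family were hardly expressed. Of 44 other family genes listed, 41 had a row, 20 of these stayed at 3 or fewer counts in all 16 libraries and 3 exceeded 3 counts in all of them. The 3 were *Lynx1*, a modulator of nicotinic receptors, *Plaur*, the urokinase receptor, and *Cd59a*, an inhibitor of the complement pore. Of the 41, 7 passed the filter on low counts in WT and AMPK-KO cells. *Lypd6*, *Psca* and *I830127L07Rik* passed it through WT libraries alone and *Pate2* through AMPK-KO libraries alone, so their values are given without a test. *Lypd6* had 75 and 316 counts in WT and 0 in both AMPK-KO libraries at d0, at least 69.8-fold lower. *Psca*, the prostate stem cell antigen, measured 9.58 and 5.02 CPM in WT and 0.326 and 0.0971 CPM in AMPK-KO cells at d8 (log2 fold change −5.03, SE 0.737). *I830127L07Rik*, which shares stretches of 50 bases with *Ly6a* and *Ly6c2*, had 47 and 68 counts in WT and 0 in AMPK-KO cells at d8. The other 3, *Lynx1*, *Plaur* and *Cd59a*, were not called between AMPK-KO and WT cells on either day. Of all genes 0.607% were called higher and 1.8% lower at d0, and 1.32% higher and 2.2% lower at d8.

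*Lynx1* measured 106 and 84.9 CPM in WT and 53.9 and 60.1 CPM in AMPK-KO cells at d0 (log2 fold change −0.74, SE 0.201, edgeR adjusted p = 0.1), a difference far smaller than that of *Ly6a*. With differentiation 5.78% of all genes were called higher and 6.58% lower in WT, and 4.81% higher and 4.95% lower in AMPK-KO cells. *Plaur* was lower at d8 than at d0 in WT (log2 fold change −2.58, SE 0.557, edgeR adjusted p = 0.0306) and in AMPK-KO cells (−2.24, SE 0.547, 0.0473). In WT cells *Psca* was higher at d8 (3.25, SE 0.656), and *I830127L07Rik* exceeded 3 counts at d8 only, both given without a test. *Cd59a* and *Lynx1* were higher at d8 in AMPK-KO cells, of which *Lynx1* alone was called without AMPK-KO d8 replicate 1. Between TET2-S97E and TET2-WT cells the same 3 were tested and none was called, where 3.12% of all genes were called higher and 2.97% lower.

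The neighbourhood of the 4 genes on chromosome 15 was mostly silent. Within 500 kb of their span, 52 annotated genes had a row, and of the 48 besides the Ly6 genes of interest 29 stayed at 3 or fewer counts in all libraries and 8 were tested in the first table. Of the 8, *Psca*, *I830127L07Rik* and *Cyp11b1* had passed the filter through WT libraries alone, so no count of calls is read from the 8 on either day. None of the others was called at d0, where 0.607% of all genes were called higher and 1.8% lower. *BC025446* alone of the others was called at d8, where 1.32% were called higher and 2.2% lower. It measured 12.8 and 16.7 CPM in WT and 0.204 and 0.631 CPM in AMPK-KO cells at d8 (log2 fold change −5.15, SE 1.08, edgeR adjusted p = 0.0413). The neighbours *Jrk* and *Them6* were not called on either day. *Jrk* measured 24.1 and 20.2 CPM in WT and 28.3 and 21.6 CPM in AMPK-KO cells at d0, and *Them6* 37.3 and 80.9 against 39.4 and 64.8 CPM. In the second table *Cyp11b1*, a steroid hydroxylase gene, was called higher in TET2-S97E cells, but its libraries overlapped and its level came from clone 1 (19.8 and 19.9 CPM, against 0.303 and 0.685 CPM in clone 2).

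**Figure D5:**
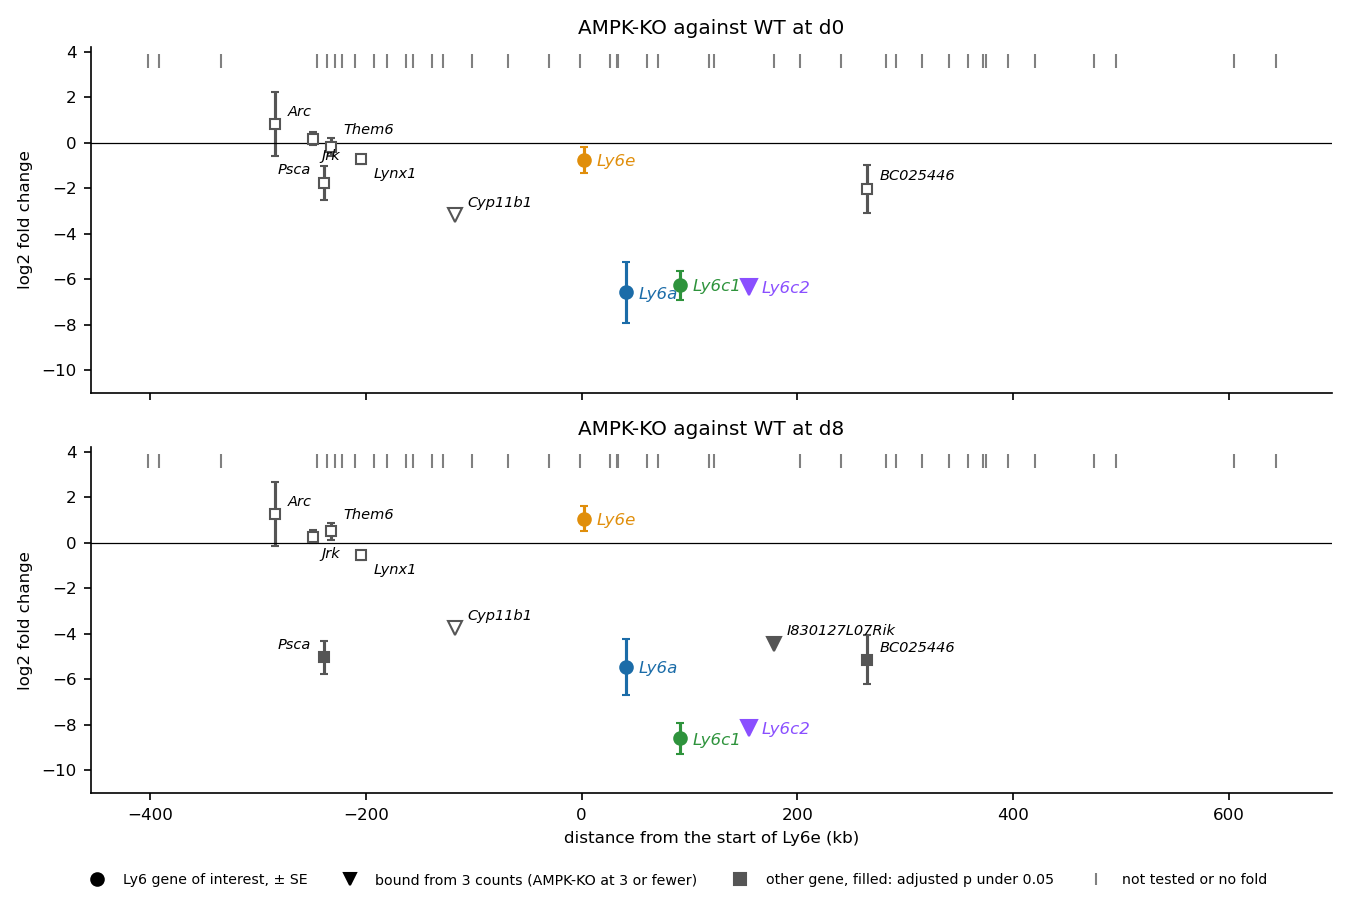
Fitted log2 fold change in AMPK-KO against WT cells (vertical axis, bars SE) by distance from the start of *Ly6e* in kb, at d0 (top) and d8 (bottom). Triangles are bounds for genes at 3 or fewer counts in AMPK-KO cells, filled squares passed an edgeR adjusted p of 0.05, and ticks are genes with no test or no fold. *Psca* and *I830127L07Rik*, filled at d8, passed the filter through WT libraries alone, so nothing is read from their fill. As drawn, *Ly6a*, *Ly6c1* and *Ly6c2* lie lowest on both days.

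GPI anchors are built and attached in the endoplasmic reticulum. Of 28 listed genes of GPI-anchor synthesis and transfer, 26 were tested in each comparison of genotypes. *Dpm3*, a subunit of the mannose donor enzyme, was higher in AMPK-KO cells at d0 (log2 fold change 1.32, SE 0.247, edgeR adjusted p = 0.037). *Pigk*, the catalytic subunit of the transamidase, was lower in TET2-S97E cells (−0.59, SE 0.124, edgeR adjusted p = 0.0238). That is 1 of 26 called higher at d0, where 0.607% of all genes were called higher and 1.8% lower, and 1 of 26 called lower in TET2-S97E cells, where 3.12% were called higher and 2.97% lower. None was called at d8 (1.32% and 2.2% of all genes) or with differentiation (12.4% in WT and 9.76% in AMPK-KO cells), and the list's median log2 fold change stayed between −0.0287 and 0.156 over the 5 comparisons of genotype and day.

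Some other surface antigens of stem and progenitor cells were also lower in AMPK-KO cells. Of 20 listed, 18 were tested between AMPK-KO and WT cells. *Cd34*, *Cd44*, *Pdpn* and *Abcg2* were called lower on both days, 4 of 18 where 1.8% of all genes at d0 and 2.2% at d8 were called lower, whereas *Alcam* was called higher at d8 (1.32% of all genes). *Cd34*, a sialomucin of progenitors, measured 119 and 46.1 CPM in WT and 3.98 and 4.49 CPM in AMPK-KO cells at d0 (log2 fold change −4.28, SE 0.501, edgeR adjusted p = 0.00996). *Cd44*, the hyaluronan receptor, measured 1098 and 1544 against 236 and 253 CPM (−2.43, SE 0.357, edgeR adjusted p = 0.0175). The median of the list was −0.836 and −0.769 on the 2 days, against 0.0134 and 0.0627 for all genes. Without AMPK-KO d8 replicate 1, *Cd34*, *Cd44*, *Abcg2* and *Kit* were called lower at d8 (0.786% of all genes) and none higher (0.358%). In TET2-S97E cells none of 15 was called higher and *Sdc4* was called lower, where 3.12% of all genes were called higher and 2.97% lower. *Cd34* gave a log2 fold change of −1.08 (SE 0.556, edgeR adjusted p = 0.28) and *Cd44* 0.24 (SE 0.158, edgeR adjusted p = 0.407) there, where *Ly6e* was higher.

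Some markers of the muscle lineage were called between genotypes at d0. Of 16 myogenic markers, *Pax7*, *Msc* and *Actn2* passed the filter through WT libraries alone. The AMPK-KO libraries at d0 held 0 and 1 counts of *Pax7*, against 167 and 169 in WT cells, and 0 and 2 of *Msc*, against 134 and 300. With 3 counts taken for each AMPK-KO library they were at least 57.9-fold and at least 76.5-fold lower. Of the other 13, *Myod1*, *Myog*, *Mymk* and *Mymx* were called lower in AMPK-KO cells at d0 (1.8% of all genes were), with a median of −3.23 against 0.0134 for all genes. None of the 13 was called at d8 by edgeR, where 2.2% of all genes were called lower, with a median of −0.829. That median rested on 1 library. Without AMPK-KO d8 replicate 1 it was 0.00872, against 0.0534 for all genes. Between TET2-S97E and TET2-WT cells *Pax7* and *Mymx* passed the filter through TET2-S97E libraries alone. Of 12 others 7 were called higher, *Myod1* and *Myog* among them, where 3.12% of all genes were, with a median of 3.18 against 0.0135 for all genes. Summed over the 16 markers, the level was 2568 and 3567 CPM in WT and 1872 and 2347 CPM in AMPK-KO cells at d0. At d8 it was 7646 and 9794 CPM in WT and 3927 and 10580 CPM in AMPK-KO cells. Of the 16, 12 and 9 exceeded 3 counts in the AMPK-KO libraries at d0. In the second table the sum was 1819 to 2381 CPM in TET2-WT and 7926, 5262, 2728 and 1749 CPM in TET2-S97E libraries. Between the TET2-WT clones *Myod1* alone was called higher in clone 2 (log2 fold change 1.32, SE 0.23, edgeR adjusted p = 0.0387), where *Ly6a* was called lower. Of all genes 0.457% were called higher there. Of the 14 markers 11 were above 0 (median 1.40), against 7059 of 14231 for all genes (median −0.00341). Between the TET2-S97E clones 6 of 14 markers were called lower in clone 2 and none higher (median −1.50, 12 of 14 below 0, with 2.78% of all genes called lower), where *Ly6e* was called lower and both *Ly6a* libraries lay below those of clone 1. What part the state of differentiation had in the Ly6 levels was not tested.

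Markers of other cell types that carry Sca-1 or Ly6C were at 0 in part, and others were expressed. *Ptprc*, which marks blood cells, had at most 1 count in any library, and the 10 immune markers summed to 9.38 to 45.0 CPM with *Cd14* the most abundant in all 16 libraries, at 7.74 to 38.8 CPM. Of 4 tested between AMPK-KO and WT cells, 2 passed the filter through AMPK-KO libraries alone. The other 2 were not called on either day, with log2 fold changes above 0 on both (median 0.34 at d0 and 0.889 at d8), where 0.607% and 1.32% of all genes were called higher. *Pecam1*, which marks endothelium, had at most 8 counts and none in the WT libraries at d0. The 9 endothelial markers summed to 14.6 and 11.3 CPM in WT and 2.56 and 9.11 CPM in AMPK-KO cells at d0, without overlap. The receptor gene *Flt1* led the WT sums with 9.11 and 5.31 CPM, at least 48.5-fold above AMPK-KO cells, while *Tek* was the most abundant in 13 of the 16 libraries. At d8 the sums overlapped, at 7.49 and 13.7 against 5.63 and 7.62 CPM. Of 4 endothelial markers tested, *Flt1* and *Kdr* passed the filter through WT libraries alone. The other 2 were not called on either day, where 1.8% and 2.2% of all genes were called lower, and had log2 fold changes on both sides of 0 at d0 and below 0 at d8 (median −0.0815). Between TET2-S97E and TET2-WT cells *Tek*, 1 of 2 tested, was called lower (log2 fold change −1.93, SE 0.443, edgeR adjusted p = 0.0325). Of all genes 2.97% were called lower there.

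Fibro-adipogenic markers, led by *Col3a1* in all 16 libraries, summed to 4465 and 2712 CPM in WT and 3359 and 5089 CPM in AMPK-KO cells at d0, with overlap. *Col3a1* held 67.8 to 88.9% of these sums. The sum of the other markers, computed after the data were seen, was 1439 and 758 CPM in WT against 444.5 and 564 CPM in AMPK-KO libraries at d0. At d8 it was 2042 and 3434 against 791 and 976 CPM. In this sum the AMPK-KO libraries lay below WT without overlap on both days, as did 25.7% of single genes tested at d0 and 27.9% at d8. The sum of all the markers, *Col3a1* included, overlapped at d8 as well, at 8709 and 12360 CPM in WT against 11620 and 8643 CPM in AMPK-KO cells. Of 12 tested, *Hic1* and *Osr1* passed the filter through 1 genotype alone. Of the other 10, *Cd34* was called lower at d0 (1.8% of all genes were), and *Cd34*, *Col1a1* and *Lum* at d8 (2.2% of all genes; *Cd34* alone without AMPK-KO d8 replicate 1, with 0.786% of all genes). The 10 had medians of −0.865 (d0) and −1.21 (d8) on the log2 scale, 7 of 10 being below 0 on each day, against 0.0134 and 0.0627 for all genes. Between TET2-S97E and TET2-WT cells none of 11 was called, where 3.12% of all genes were called higher and 2.97% lower. Of 12 tested between clones, *Col1a1* and *Lum* were called higher in TET2-WT clone 2 (0.457% of all genes), where *Ly6a* was called lower. *Dcn*, *Lum* and *Pi16* were called higher in TET2-S97E clone 2 (3.12% of all genes), where *Ly6e* was called lower. None was called lower in either clone 2. The medians were 0.544 and 0.432, against −0.00341 and 0.0308 for all genes. *Thy1*, a mesenchymal surface antigen, had 0 counts in every WT and AMPK-KO library and at most 4 in the TET2 lines. What part these cell types had in the Ly6 levels was not tested.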

How the data were processed

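Gene expression in C2C12 cells was measured by paired-end RNA-seq of ribosomal RNA-depleted total RNA. Per the labels and the study's methods, the authors trimmed reads with Trim Galore 0.4.5, mapped them to GRCm38 (mm10) with STAR 2.5.3a and summarised them by gene of GENCODE M12 with featureCounts 1.5.3. Each of the 2 deposited tables, 1 per experiment, holds raw integer counts that the authors did not normalize. The handling of strand and of multiply aligned reads is not given in the sources used here. Coordinates, exon lengths and transcripts came from GENCODE M21 on GRCm38 (49326 of 49585 identifiers found), and promoter windows from RefSeq, where 2 of the 4 genes matched.

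Tests used edgeR 4.0.16 in R 4.3.3 (TMM, filterByExpr, the quasi-likelihood test of glmQLFit and glmQLFTest). P-values were adjusted by Benjamini-Hochberg over all genes tested, with a threshold of 0.05. The first table entered 1 model of 4 groups. The second entered a model of genotype and a model of 4 clone groups. Alternatives were DESeq2 1.42.0, its size factors, no filter, a replicate block, single libraries or clones left out, counts summed per clone and single-day fits. TPM used exon lengths, log2 CPM a prior count of 2, and alignments Biopython 1.88. In simulated data with 200 genes given a log2 change of 2, edgeR called 79% of these with the d0 libraries of AMPK-KO and WT cells and 91.5% with those of the TET2 genotypes.

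The 4 genes, the lists and the tests were chosen with earlier results of these data known. Named genes were the 4 genes in each comparison, the tested genes of the Ly6/uPAR list, up to 4 genes of lowest p per other list, defining markers, called genes near the locus, and the 5 most alike genes of each. Other names, such as further called members of a list, *Jrk* and *Them6*, were chosen after their values were seen. Leaving genes that passed the filter through 1 genotype or clone alone out of list counts was chosen after seeing the data. It was not done for genes that passed through 1 day alone, so list counts of d8 against d0 may hold such genes. The values of 1 gene of the lists are not reported here.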

Additional observations from a re-analysis of the deposited data

How the results depend on the processing

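Size factors from DESeq2 in place of TMM changed no direction and no call of the 4 genes. With the DESeq2 Wald test the genes called were 1393 (AMPK-KO against WT at d0, 505 with edgeR), 1656 (at d8, 766), 2762 (d8 against d0 in WT, 1771), 2532 (in AMPK-KO, 1398), 1825 (TET2-S97E against TET2-WT, 938), 894 (TET2-WT clones, 124) and 1383 (TET2-S97E clones, 892). That test also called *Ly6c1* (1.71) and *Ly6c2* (1.67) in WT differentiation, *Ly6a* in TET2-S97E cells (2.90) and *Ly6c1* between TET2-WT clones (−3.75). Nothing is read from that *Ly6a* call, because *Ly6a* passed the filter through TET2-S97E libraries alone. Without the filter on low counts, 2026, 2503, 3293, 3039, 1627 and 1680 genes were called in these comparisons, leaving out TET2-S97E against TET2-WT. There the calls included *Ly6a* 0.82, *Ly6c1* 1.70, *Ly6c2* 1.65 and *Ly6e* −1.05 in WT differentiation, *Ly6a* 1.92 and *Ly6e* 0.76 in AMPK-KO differentiation, *Ly6a* 2.87 in TET2-S97E cells and *Ly6c1* −3.69 between TET2-WT clones. The cause was not tested.

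Replicate numbers are shared by the groups but only 2 per group exist, so they were not taken as pairs. Deviations from group means correlated, across genes, at 0.119 to 0.324 among WT and AMPK-KO groups and at −0.021 to 0.506 among TET2 groups. With a replicate block, 677 genes were called between TET2-WT clones and 1540 between TET2-S97E clones, *Ly6c1* gave 3.39 (edgeR adjusted p = 0.0541) in TET2-S97E cells and −3.66 (0.0377) between TET2-WT clones, and no other call of the 4 genes changed. Fitting d0 alone called 335 genes. Counts summed per clone called 0 genes and gave *Ly6c1* 3.16 and *Ly6e* 2.87, with fewer samples. Without TET2-WT clone 1, 183 genes were called, with *Ly6a* at 5.88 and *Ly6e* at 2.93 (0.0544). Without TET2-WT clone 2, 625 were called, with *Ly6a* at 1.98. Without TET2-S97E clone 1, *Ly6c1* gave 2.97 (0.119).

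Leaving out each library in turn, genes called ranged over 17 to 613 (AMPK-KO against WT at d0), 107 to 902 (at d8), 0 to 2260 (WT differentiation), 0 to 1737 (AMPK-KO differentiation), 304 to 1092 (TET2-S97E against TET2-WT), 0 to 313 (TET2-WT clones) and 472 to 1014 (TET2-S97E clones). A group left with 1 library was assumed to vary like the others. The log2 fold changes of AMPK-KO against WT at d8 ranged over −9.25 to −4.56 for *Ly6a*, −10.55 to −7.89 for *Ly6c1* and −0.22 to 1.70 for *Ly6e*, with the lowest of each without AMPK-KO d8 replicate 1. In WT differentiation they ranged over 1.28 to 1.96 for *Ly6c1*, 1.27 to 2.14 for *Ly6c2* and −1.36 to −0.85 for *Ly6e*. In AMPK-KO differentiation they ranged over −1.87 to 2.84 for *Ly6a*, −2.60 to 0.075 for *Ly6c1* and −0.52 to 1.41 for *Ly6e*, and changed sign without AMPK-KO d8 replicate 1 (*Ly6a*, *Ly6e*) or replicate 2 (*Ly6c1*). *Ly6c1* ranged over 2.88 to 4.64 in TET2-S97E cells. Between TET2-WT clones the ranges were −4.10 to −3.72 for *Ly6a*, −4.82 to −2.67 for *Ly6c1* and −0.30 to 0.13 for *Ly6e*, which was also above 0, at 0.074, without TET2-WT clone 1 replicate 2.

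Of the 5 most alike genes, 2 of *Ly6a*, 3 of *Ly6c1*, 3 of *Ly6c2* and 0 of *Ly6e* were kept with the first table alone, and 2, 2, 0 and 0 with the second alone. *Ly6c2* fits against libraries at 0 counts are not given. The design has 2 libraries per group. Counts of at most 10 limit *Ly6c2* in AMPK-null cells and *Ly6c1* in AMPK-KO d8 replicate 2 and TET2-WT clone 2.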

Other observations

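Among 38 other genes of GPI-anchored proteins, 25 were tested between AMPK-KO and WT cells, and 3 of these passed the filter through 1 genotype alone. Of the other 22, 3 were called lower at d0 (1.8% of all genes were), and 2 lower and 1 higher at d8 (2.2% and 1.32% of all genes). *Ulbp1*, a ligand of the NKG2D receptor, was lower in AMPK-KO cells at d0 (log2 fold change −5.68, SE 0.625, edgeR adjusted p = 0.00878) and at d8 (−3.87, SE 0.592, edgeR adjusted p = 0.0167). *Efna5*, an ephrin ligand, was lower by similar amounts on both days (−3.42, SE 0.447, edgeR adjusted p = 0.0129 at d0, and −3.61, SE 0.494, edgeR adjusted p = 0.0129 at d8). *Rgma*, a repulsive guidance molecule, was called lower at d0. *Raet1e*, another NKG2D ligand, was called higher at d8, and still was without AMPK-KO d8 replicate 1, when *Cd55* alone of the 22 was called lower (0.358% and 0.786% of all genes). In TET2-S97E cells *Cd55*, *Hfe2*, *Rgma* and *Tfpi* were called higher and *Efna1* and *Efna4* lower, of 19 (3.12% and 2.97% of all genes). The medians on the log2 scale were −0.315 at d0, −0.316 at d8 and −0.288 between TET2-S97E and TET2-WT cells, against 0.0134, 0.0627 and 0.0135 for all genes.

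Of 16 interferon-signalling genes, 3 were called higher in TET2-S97E clone 2 than in clone 1 and none lower (3.12% and 2.78% of all genes), with a median log2 fold change of 0.179 against 0.0308 for all genes. *Irf1* (log2 fold change 0.95, SE 0.172, edgeR adjusted p = 0.0128), *Socs3* (0.91, SE 0.177, 0.0178) and *Jak2* (0.72, SE 0.157, 0.0297) were higher in clone 2, which had the lower *Ly6e*. Among the interferon-stimulated genes *Gbp2*, *Ifi27*, *Ifit3* and *Irgm1* were called higher in clone 2 and *Ifitm1* lower, of 26 (3.12% and 2.78% of all genes).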
